A study of Mus musculus with 36 samples.

Results

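The measurements below concern the interaction of chronic carbon tetrachloride (CCl4) exposure with its duration, that is, how far the effect of CCl4 on liver transcripts after 12 months differed from its effect after 2 months. Chosen by their group labels alone, 24 of the 36 libraries of the series entered this contrast, 6 in each of 4 groups, with every gene that passed the filter on low counts, 15338 of 32544 gene symbols. Month 12 CCl4 mice were male C57BL/6N mice, 8 to 10 weeks old when dosing began, that received 1 g of CCl4 per kg body weight, dissolved in olive oil, by intraperitoneal injection 2 times each week over 12 months. Month 12 oil mice received olive oil alone on the same schedule. Month 2 CCl4 mice and month 2 oil mice were dosed in these same ways over 2 months. All 4 groups were sampled on day 6 after the last injection, so month 12 mice of both arms were older than month 2 mice by 10 months. RNA came from whole liver, was depleted of ribosomal RNA and was sequenced in read pairs from a stranded total RNA library. The labels name neither the lobe taken nor any nodule. The same replicate numbers, 1 to 6, are used in each group. Nothing in the labels says which animals shared a cage or a day, so p-values measure the spread between these libraries. Because whole tissue was measured, fewer cells of a type and less RNA per cell cannot be told apart.

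CCl4 is converted in hepatocytes around the central vein, mainly by the cytochrome P450 enzyme CYP2E1, to a radical that damages membrane lipids and kills these cells. Repeated dosing in mice brings cycles of hepatocyte death and regrowth, scar matrix made by activated stellate cells, and, over long periods, liver tumours. Adult male mouse liver also keeps a set of sex-biased genes under the pulses of growth hormone, and the transcription factor NRF2 switches on detoxifying and glutathione genes in cells under electrophilic stress. The contrast of durations asks which of these functions are changed by CCl4 late but not early, early but not late, or in opposite directions at the 2 months.

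The 24 libraries held 21812315 to 28917545 counts each. The hepatocyte markers Alb, Ttr, Apoa1 and Cps1 were high in all of them, with Alb between 33651 and 84159 CPM, the count scaled to the size of the library. Pancreas genes summed to 32.8 to 49307 CPM and were highest at 46455 CPM in a month 12 oil, 49307 CPM in a month 2 CCl4 and 25575 CPM in a month 2 oil library, against at most 5340 CPM in month 12 CCl4 libraries. Replicate 6 of month 2 CCl4 carried intestinal transcripts, replicate 1 of month 2 CCl4 carried neutrophil and erythroid transcripts, replicate 2 of month 12 oil carried mesothelial transcripts, and replicate 2 of month 2 oil had the highest intestinal and pancreas levels of its group. Counts below are therefore also given without these 4 libraries. The month 12 oil and month 2 CCl4 libraries highest in pancreas genes are not among the 4, so that fit is no check on pancreas transcripts. Clock genes differed by group too, with a median log2 ratio of Arntl to Dbp of -0.81 in month 12 CCl4, 1.52 in month 12 oil, -5.20 in month 2 CCl4 and -4.27 in month 2 oil livers. A fit with this ratio as a covariate called 3600 genes for the interaction, 1863 higher and 1737 lower, against 3263 without it.

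In this text the interaction value of a gene is its log2 CCl4-to-oil ratio at month 12 minus its log2 CCl4-to-oil ratio at month 2, so a positive value means that CCl4 moved the gene further up, or less far down, at month 12. A gene was called at an adjusted p below 0.05 in the quasi-likelihood test of edgeR, adjusted by Benjamini and Hochberg over all 15338 genes. The interaction was called for 3263 genes, 21.3% of those tested. Of these, 1713 (11.2%) were higher and 1550 (10.1%) were lower, and the median interaction value over all tested genes was 0.00. A change of at least 2-fold was fitted for 857 of the higher and 374 of the lower genes. With library totals in place of scaling by trimmed means (TMM), 5553 genes were called, 5115 higher and 438 lower, and the median gene moved to 0.35 on the log2 scale. List medians below 0.35 in size can thus change sign between these scalings. Called shares of a list are to be read against the 11.2% higher and 10.1% lower of all genes. List counts with library totals are instead to be read against the 5115 higher and 438 lower of 15338 genes under that scaling. Without the 4 libraries listed above, 2845 genes were called, and 2512 of the 3263 genes were among them.

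CCl4 against oil was called for 7536 genes (49.1%) at month 12, 3975 higher (25.9%) and 3561 lower (23.2%). At month 2 it was called for 1591 genes (10.4%), 1073 higher (7%) and 518 lower (3.38%). Of the 1591 genes called at month 2, 1120 were called in the same direction at month 12, 56 in the opposite direction, and 415 were not called there. Combining these calls with the interaction gave classes. Effects gained by month 12 (called at month 12, not at month 2, with a called interaction) numbered 2759 genes (18%), 1404 higher (9.15%) and 1355 lower (8.83%). Effects deepened by month 12 (called at both months, in one direction, and larger at month 12) numbered 210 genes (1.37%), 141 higher (0.919%) and 69 lower (0.45%). Effects lost by month 12 (called at month 2, not at month 12, with a called interaction) numbered 118 genes (0.769%). Reversed effects numbered 56 genes (0.365%) and attenuated effects, smaller at month 12 in the same direction, 8 genes (0.0522%). A further 112 genes (0.73%) were called at neither month alone. A further 3601 genes were called at month 12 alone without a called interaction, and are not counted as gained.

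**Figure D1:**
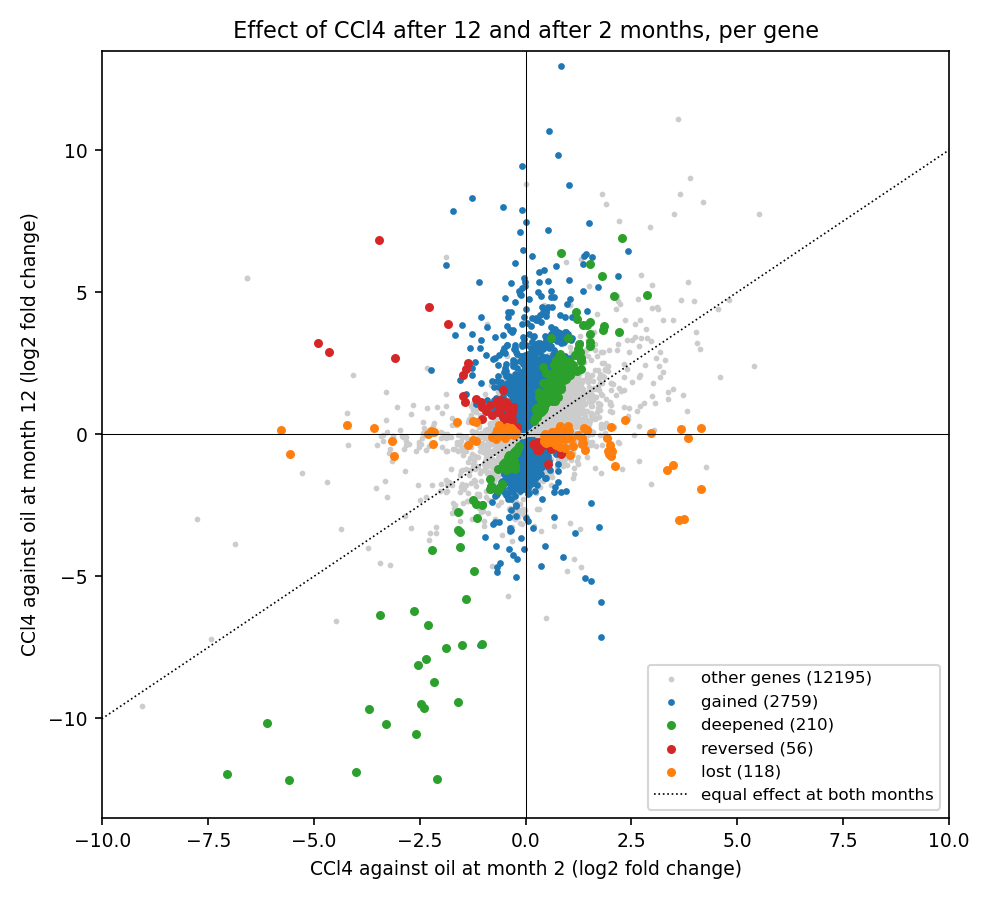
Each point is 1 of 15338 tested genes, placed by its log2 CCl4-to-oil ratio at month 12 (vertical axis) and at month 2 (horizontal axis), and coloured by class of called interaction. The 2759 gained genes spread along the month 12 axis, and the 56 reversed genes lie in the 2 corners where the signs differ.

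Most of the difference lay in the CCl4 arm. Between month 12 and month 2, 6273 genes (40.9%) were called in CCl4 livers and 11 genes (0.0717%) in oil livers, 6 higher (0.0391%) and 5 lower (0.0326%), where 1753 genes had an unadjusted p below 0.05, DESeq2 called 140 genes and limma-voom 17. Of the 3263 interaction genes, 3077 (94.3%) were also called between CCl4 month 12 and CCl4 month 2, and 8 between the oil groups. These contrasts share their samples with the interaction, so the overlap describes where the difference sits and is no separate test. The median size of change over the interaction genes was 0.71 in the CCl4 arm and 0.13 in the oil arm on the log2 scale, against 0.30 and 0.13 over all tested genes.

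In these male mice, 14 of 34 genes of male liver fell under CCl4 at month 2 and 31 at month 12, while of 28 genes of female liver 24 rose and 1 fell at month 12, and 3 rose and 2 fell at month 2. Levels of a gene are given from here on as the lowest, the median and the highest of the 6 mice of a group, in CPM, with positions on mm10. Hsd3b5 (chr3:98618634-98630252), a steroid reductase of male mouse liver, was at 0.0708, 0.167 and 0.515 CPM in month 12 CCl4 livers, 255, 343 and 422 CPM in month 12 oil livers, 9.47, 40.03 and 113 CPM in month 2 CCl4 livers and 249, 312 and 381 CPM in month 2 oil livers. The groups of each month did not overlap, and month 12 CCl4 livers lay below month 2 CCl4 livers. Its log2 CCl4-to-oil ratio was -10.56 (SE 0.79) at month 12 and -2.60 (SE 0.52) at month 2, an interaction value of -7.96 (SE 0.87), edgeR adjusted p = 5.7e-08. Slco1a1 (chr6:141907282-141946962), an organic anion uptake transporter of male liver, was at 1.84, 4.31 and 5.82 CPM in month 12 CCl4 livers, 590.0, 729 and 896 CPM in month 12 oil livers, 158, 315 and 434 CPM in month 2 CCl4 livers and 784, 829 and 954 CPM in month 2 oil livers. Month 2 CCl4 livers all stood below the oil livers, and month 12 CCl4 livers below month 2 CCl4 livers. The interaction value of Slco1a1 was -5.91 (SE 0.43), edgeR adjusted p = 1e-11.

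Of 34 male-biased genes tested, 22 were lower and 2 higher for the interaction, with a median value of -1.82, and the count was the same without the 4 libraries. At month 12, 31 of them were lower and 2 higher, and at month 2, 14 were lower and none of the 34 was higher. Of the 22, 11 were lower at month 2 already and lower by more at month 12. Among these were the major urinary proteins Mup12 and Mup1, pheromone carriers, with medians of 0.288 and 4.07 CPM in month 12 CCl4 livers, against 1472 and 4002 CPM in month 12 oil livers. In month 2 CCl4 livers their medians were 29.8 and 277 CPM, against 714 and 1947 CPM in month 2 oil livers. Mup genes are nearly identical copies, as are several Cyp2a, Cyp2c, Gstm, Saa and Sult2a genes named below, and reads may have been split among copies, so single members of these families are uncertain. C8a, a complement component, had a log2 ratio of -1.98 (SE 0.13) at month 12 and -0.14 (SE 0.13) at month 2, not called there. The exceptions among male-biased genes were Cib3, a calcium and integrin binding protein, and Ces2c, a carboxylesterase, with interaction values of 3.37 and 1.19.

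Of 28 female-biased genes tested, 14 were higher and none of the 28 was lower for the interaction, with a median of 2.22, and without the 4 libraries 16 were higher and 0 lower. Cyp2a4 (chr7:26307169-26315088), a steroid hydroxylase of female liver, was at 262, 1238 and 3087 CPM in month 12 CCl4 livers, 0, 0.158 and 0.317 CPM in month 12 oil livers, 0.0806, 0.731 and 0.968 CPM in month 2 CCl4 livers and 0.0417, 0.206 and 1.14 CPM in month 2 oil livers. All month 12 CCl4 livers stood above every other liver, while the month 2 groups overlapped near the detection limit. The interaction value was 12.13 (SE 1.09), edgeR adjusted p = 8.7e-10, and 11.30 without replicate 5 of month 2 oil. Abcd2, a peroxisomal fatty acid transporter, had an interaction value of 2.55 (SE 0.48), with differences of 0.90 between the CCl4 groups and -1.65 between the oil groups, where it was not called. The sulfotransferase Sult2a2 was at 3.49, 8.72 and 28.4 CPM in month 12 CCl4 livers, at 0, 0.0388 and 0.129 CPM in month 2 CCl4 livers and had 0 counts in all 12 oil livers, so no fold is given for it.

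Part of the growth hormone axis was lower for the interaction, 5 of 21 genes. Ghr, the growth hormone receptor, was at 107, 167 and 290.0 CPM in month 12 CCl4 livers, 475, 575 and 616 CPM in month 12 oil livers, 440.4, 542 and 572 CPM in month 2 CCl4 livers and 482, 600.5 and 736 CPM in month 2 oil livers. The month 12 CCl4 livers lay below all others, and the other groups overlapped. The interaction value of Ghr was -1.42 (SE 0.27), edgeR adjusted p = 0.0002. Igf1, the insulin-like growth factor that growth hormone induces in liver, had a log2 ratio of -1.16 (SE 0.12) at month 12 and 0.08 (SE 0.12) at month 2, an interaction value of -1.24 (SE 0.17), edgeR adjusted p = 3.1e-06. Of 21 genes of this axis, 5 were lower (Ghr, Igf1, Igfals, Bcl6 and Esr1) and Igfbp1 was higher, a call that held in 11 of 24 refits that each left out 1 library. With library totals 5 were lower and 4 higher, and the list median of -0.52 became -0.19. The median of the list between the oil groups, month 12 over month 2, was 0.33, against 0.01 for all genes.

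Antioxidant and glutathione genes rose at month 12 and not at month 2 in most cases, 26 of 50, and the promoters of 2 of them are shown because a short element for NRF2 lies in them. The antioxidant response element was searched as TGACNNNGC or TGAGTCAGC on both strands in the 300 bases from 250 before to 50 after each RefSeq gene start (GRCm38.p6). It was present in 12.7% of 32851 promoters and in at least 1 promoter of 14.3% of 27025 gene symbols. Of 43 listed antioxidant genes with a promoter, 16 (37.2%) held it. Among these 43, 26 were called higher for the interaction, and 8 of those (30.8%) held it. Capitals mark each match, and a match describes letters and not a bound site. The form TGAGTCAGC also holds the AP-1 site TGAGTCA. Abcc4 (chr14:118706170-118706469, minus strand, 1 of 2 promoters of the gene) has 1 match in reverse orientation, as GCNNNGTCA, and Srxn1 (chr2:152105274-152105573, plus strand) has 2, of which the second is in reverse orientation.
Abcc4: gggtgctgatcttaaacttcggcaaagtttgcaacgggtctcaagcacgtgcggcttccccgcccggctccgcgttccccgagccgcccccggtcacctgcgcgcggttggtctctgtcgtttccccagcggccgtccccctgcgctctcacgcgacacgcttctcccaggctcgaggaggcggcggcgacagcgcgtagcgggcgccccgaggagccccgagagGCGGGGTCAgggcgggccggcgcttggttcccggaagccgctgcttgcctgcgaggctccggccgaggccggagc
Srxn1: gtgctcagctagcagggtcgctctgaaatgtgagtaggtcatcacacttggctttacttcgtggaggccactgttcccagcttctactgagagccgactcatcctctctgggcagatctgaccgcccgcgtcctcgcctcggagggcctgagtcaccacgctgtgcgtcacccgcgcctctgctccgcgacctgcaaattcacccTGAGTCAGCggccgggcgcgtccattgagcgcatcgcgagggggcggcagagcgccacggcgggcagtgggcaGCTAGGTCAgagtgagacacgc

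Nqo1 (chr8:107388225-107403206), the quinone reductase that is a standard target of NRF2, was at 43.6, 70.1 and 97.3 CPM in month 12 CCl4 livers, 2.79, 4.28 and 5.51 CPM in month 12 oil livers, 4.55, 5.31 and 9.55 CPM in month 2 CCl4 livers and 3.56, 4.84 and 7.07 CPM in month 2 oil livers. All 6 month 12 CCl4 livers exceeded all others and the other 3 groups overlapped. The interaction value was 3.78 (SE 0.30), edgeR adjusted p = 7e-11, with log2 ratios of 4.03 (SE 0.23) at month 12 and 0.25 (SE 0.21) at month 2. Srxn1 (chr2:152105516-152111376), sulfiredoxin, which repairs oxidised peroxiredoxins, was at 112, 164 and 429 CPM in month 12 CCl4 livers, 28.5, 32.1 and 34.4 CPM in month 12 oil livers, 23.7, 28.7 and 31.6 CPM in month 2 CCl4 livers and 29.1, 30.4 and 43.6 CPM in month 2 oil livers. Its month 12 CCl4 livers again stood apart, with an interaction value of 3.02 (SE 0.33), edgeR adjusted p = 5.7e-08. Cbr3 (chr16:93683215-93690990), a carbonyl reductase, was at 43.7, 78.99 and 98.5 CPM in month 12 CCl4 livers, 0.499, 0.794 and 1.78 CPM in month 12 oil livers, 1.26, 1.37 and 1.77 CPM in month 2 CCl4 livers and 0.411, 0.859 and 1.03 CPM in month 2 oil livers. The CCl4 and oil livers were apart at both months, by far more at month 12. Its interaction value was 5.54 (SE 0.37), edgeR adjusted p = 1.4e-12. The month 2 ratio of Cbr3 was 0.84 (SE 0.26), called in 17 of 24 such refits, with values of 0.71 to 0.86 in those that lost the call.

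Of 50 genes of this list tested, 31 were higher and 2 lower for the interaction, with a median of 1.19, and the count was 31 and 2 without the 4 libraries too. The medians of the separate effects were 1.08 at month 12 and -0.09 at month 2. At month 12, 37 were higher and 7 lower, and at month 2, 3 were higher and 3 lower. Of the 31, 26 were gained, 3 deepened and 2 reversed. Slc7a11, the cystine importer that feeds glutathione synthesis, had a log2 ratio of 5.02 (SE 0.42) at month 12 and 0.30 (SE 0.39) at month 2. Abcc4 and Abcc3, export pumps for conjugates and bile salts, had interaction values of 3.67 (SE 0.33) and 2.13 (SE 0.29). Gstm3, a glutathione transferase, was higher at both months, with ratios of 4.07 (SE 0.28) at month 12 and 1.22 (SE 0.25) at month 2. Moving the other way, Gpx1, the glutathione peroxidase of the cytosol, and Mgst1, a microsomal glutathione transferase, had interaction values of -0.90 (SE 0.21) and -0.78 (SE 0.20).

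**Figure D2:**
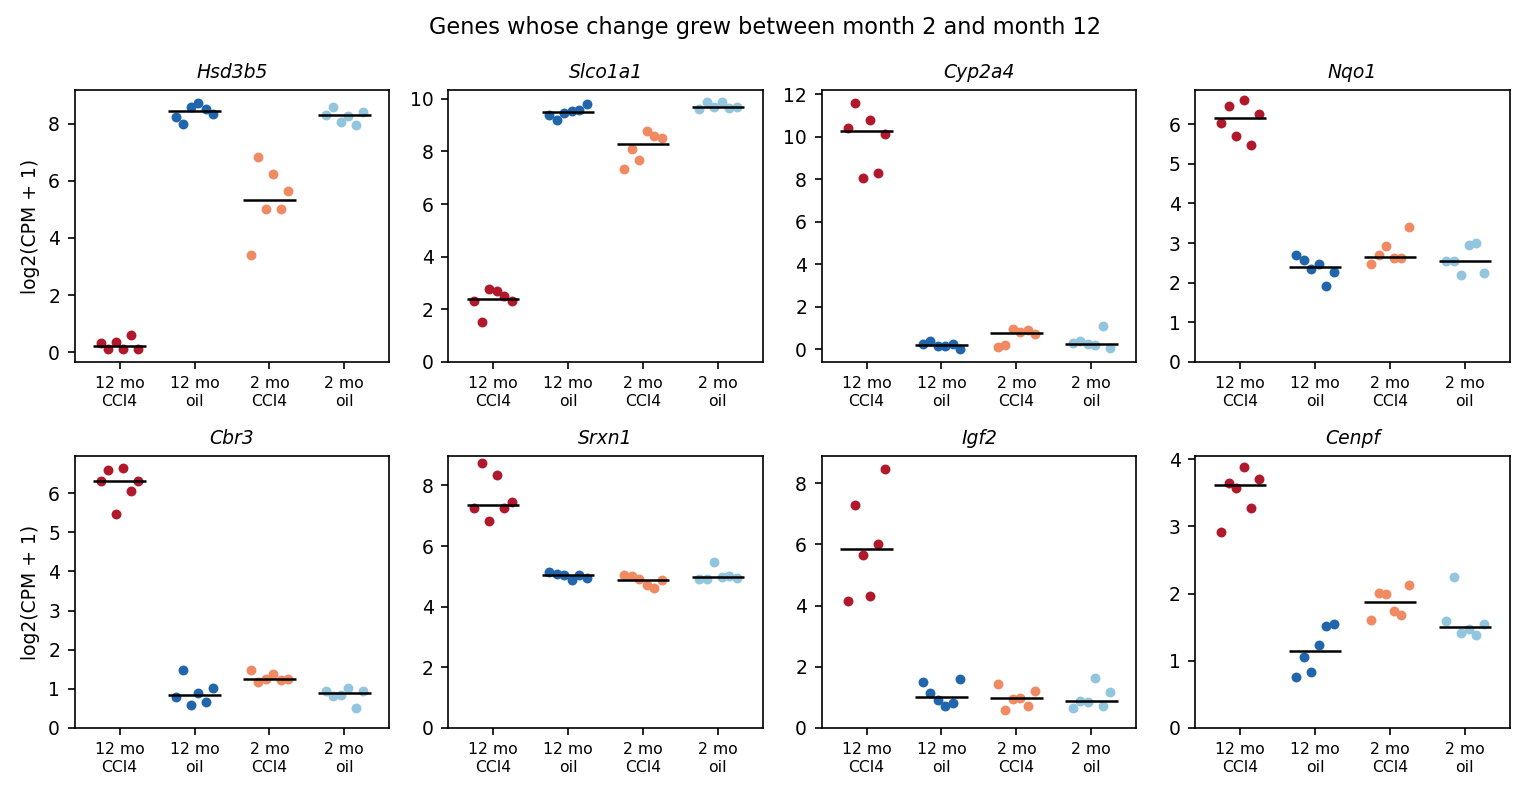
Levels of genes gained or deepened by month 12, as log2(CPM + 1) for each of 6 mice a group, with a line at the median. Month 12 CCl4 livers are shown first, then month 12 oil, month 2 CCl4 and month 2 oil livers, and Nqo1 medians were 70.1, 4.28, 5.31 and 4.84 CPM in that order.

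Fetal and tumour-associated genes rose further at month 12. Of 32 tested, 18 were higher for the interaction and none of the 32 was lower, with a median of 1.51, and 17 and 0 without the 4 libraries. At month 12, 28 of the 32 were higher, and at month 2, 9 were higher. Igf2 (chr7:142650766-142666816), the imprinted fetal growth factor, was at 16.7, 56.9 and 358 CPM in month 12 CCl4 livers, 0.632, 1.02 and 2.02 CPM in month 12 oil livers, 0.513, 0.957 and 1.69 CPM in month 2 CCl4 livers and 0.577, 0.818 and 2.11 CPM in month 2 oil livers. The lowest month 12 CCl4 liver exceeded all 18 other livers, and the spread within that group was wide. Its interaction value was 6.55 (SE 0.91), edgeR adjusted p = 3e-06, and 5.72 without replicate 6 of month 12 CCl4. Afp, alpha-fetoprotein, was at 5.59, 27.9 and 360.5 CPM in month 12 CCl4 livers and at no more than 3.88 CPM in the other 18. Its interaction value of 4.89 (SE 0.93) was 3.41 without replicate 2 of month 12 CCl4, and that of Gpc3, the glypican of fetal liver, was 3.94 (SE 0.84), and 2.69 without the same library. Scd2, a fatty acid desaturase of fetal liver, was steadier, with log2 ratios of 3.95 (SE 0.25) at month 12 and 1.53 (SE 0.23) at month 2. Ly6d, a surface protein of epithelial progenitors, was at 144, 209 and 312 CPM in month 12 CCl4 livers, against at most 9.19 CPM in the other 18, and its interaction value was 5.94 (SE 0.84).

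Most listed cell division genes rose late as well, and the promoters of 2 of them are shown because they hold the cell cycle homology region. This element, which the DREAM complex uses to silence genes of mitosis in resting cells, was searched as TTTGAA on both strands in the same windows. It was present in 17.9% of 32851 promoters and 20.2% of symbols, and in 20 of 44 listed cell cycle genes with a promoter (45.5%). Among these 44, 31 were called higher for the interaction, and 17 of those (54.8%) held it. Cenpf (chr1:189688037-189688336, minus strand) holds it from base 3 after the start, and Cdkn3 (chr14:46760291-46760590, plus strand), a cyclin-dependent kinase phosphatase with an interaction value of 3.73, holds it in reverse orientation, as TTCAAA.
Cenpf: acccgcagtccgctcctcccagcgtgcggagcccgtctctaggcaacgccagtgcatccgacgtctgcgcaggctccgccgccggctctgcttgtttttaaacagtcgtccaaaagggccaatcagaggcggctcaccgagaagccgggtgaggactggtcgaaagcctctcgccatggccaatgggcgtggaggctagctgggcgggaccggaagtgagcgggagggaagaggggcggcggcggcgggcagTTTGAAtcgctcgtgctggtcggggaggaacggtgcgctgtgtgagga
Cdkn3: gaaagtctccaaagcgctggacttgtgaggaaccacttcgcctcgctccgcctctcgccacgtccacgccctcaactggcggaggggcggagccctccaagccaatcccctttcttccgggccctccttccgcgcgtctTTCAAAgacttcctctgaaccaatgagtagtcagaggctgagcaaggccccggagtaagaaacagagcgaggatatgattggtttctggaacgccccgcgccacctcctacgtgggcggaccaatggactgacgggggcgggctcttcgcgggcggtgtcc

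Cenpf (chr1:189640606-189688086), a kinetochore protein of dividing cells, was at 6.59, 11.2 and 13.8 CPM in month 12 CCl4 livers, 0.684, 1.21 and 1.93 CPM in month 12 oil livers, 2.06, 2.67 and 3.36 CPM in month 2 CCl4 livers and 1.60, 1.84 and 3.74 CPM in month 2 oil livers. Month 12 CCl4 livers lay above all others, and the month 2 groups overlapped. Cenpf had an interaction value of 2.71 (SE 0.39), edgeR adjusted p = 4.4e-06. Mki67 (chr7:135689784-135716361), the proliferation marker, was at 17.1, 25.1 and 34.8 CPM in month 12 CCl4 livers, 3.40, 5.51 and 8.06 CPM in month 12 oil livers, 9.31, 12.4 and 16.2 CPM in month 2 CCl4 livers and 4.04, 6.75 and 12.3 CPM in month 2 oil livers. Its ratio was 2.26 (SE 0.32) at month 12 and 0.85 (SE 0.31) at month 2, not called there except without replicate 2 of month 2 oil (1.08), with an interaction value of 1.41 (SE 0.43), edgeR adjusted p = 0.018. Of 58 cell cycle genes tested, 41 were higher and 2 lower for the interaction, with a median of 1.31. Without the 4 libraries, 31 were higher and 2 lower. At month 12, 47 were higher and 2 lower, and at month 2, 2 were higher and 0 lower. Rrm2, the ribonucleotide reductase subunit, and Mcm6, of the replicative helicase, had interaction values of 1.82 (SE 0.24) and 1.83 (SE 0.26). E2f8, a repressor linked to hepatocyte polyploidy, and Mcm10, a replication factor, moved down, with values of -1.62 (SE 0.44) and -1.66 (SE 0.49).

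Targets of p53 were less uniform. Of 30 tested, 8 were higher and 1, Dcxr, lower for the interaction, with a median of 0.54. Ephx1, the microsomal epoxide hydrolase, and Phlda3, an inhibitor of AKT that p53 induces, had values of 1.62 (SE 0.20) and 2.53 (SE 0.46). Cdkn1a, the p21 cell cycle inhibitor, was higher at month 12 (2.91 (SE 0.56)) and had no called interaction, 1.83 (SE 0.81), with a 95% interval of 0.18 to 3.48. Of 15 imprinted growth genes, 6 were higher and 3 lower (Plagl1, Ndn and Slc38a4). Impact, a translational regulator, was higher at 1.09 (SE 0.18), whereas Ndn, a growth suppressor, and Slc38a4, an amino acid transporter of hepatocytes, were lower at -1.52 (SE 0.39) and -1.08 (SE 0.32).

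Genes of amino acid breakdown and the urea cycle fell at month 12 and mostly not at month 2. Of 62 genes tested, 32 were lower and none of the 62 was higher for the interaction, with a median of -0.66. The counts were 27 and 0 without the 4 libraries, and 17 lower and 2 higher with library totals. At month 12, 52 of the 62 were lower and 2 higher, while at month 2, 3 were lower and 0 higher. Of the 32, 30 were gained and 2 deepened. Pccb (chr9:100982032-101034898), a propionyl-CoA carboxylase subunit, was at 27.8, 51.8 and 57.8 CPM in month 12 CCl4 livers, 97.2, 109.8 and 136 CPM in month 12 oil livers, 94.9, 103 and 112 CPM in month 2 CCl4 livers and 107, 112 and 117 CPM in month 2 oil livers. The highest month 12 CCl4 liver lay below the lowest liver of every other group. Pccb had an interaction value of -1.16 (SE 0.18), edgeR adjusted p = 1.9e-05, from ratios of -1.27 (SE 0.13) at month 12 and -0.11 (SE 0.13) at month 2. Hal (chr10:93488768-93519304), histidine ammonia lyase of periportal hepatocytes, had an interaction value of -1.51 (SE 0.27), edgeR adjusted p = 0.00014, and Aldh6a1, of valine breakdown, one of -1.02 (SE 0.20). Otc and Cps1 of the urea cycle and Tdo2, the tryptophan dioxygenase, were all lower, at -1.25, -0.75 and -0.81.

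Part of the zonated hepatocyte genes, around both vessels, was lower for the interaction. Of 36 pericentral genes, 11 were lower and 3 higher for the interaction, with a median of -0.44. At month 12, 21 were lower and 3 higher, and at month 2, 12 were lower and 2 higher. For the interaction with library totals, 7 were lower and 5 higher, with a median of -0.08. Cyp2e1 (chr7:140763739-140774987), the enzyme that activates CCl4, was at 112, 510.0 and 651 CPM in month 12 CCl4 livers, 3394, 3867 and 4606 CPM in month 12 oil livers, 2252, 3312 and 3566 CPM in month 2 CCl4 livers and 4503, 5185 and 6101 CPM in month 2 oil livers. Each CCl4 group lay below its oil group, and month 12 CCl4 livers lay below month 2 CCl4 livers. The interaction value of Cyp2e1 was -2.34 (SE 0.38), edgeR adjusted p = 3e-05, from -3.08 (SE 0.29) at month 12 and -0.73 (SE 0.27) at month 2, not called there except without replicate 6 of month 12 CCl4, at -0.74. Glul, the glutamine synthetase of the innermost hepatocytes, had no called interaction, -0.13 (SE 0.43), with a 95% interval of -0.995 to 0.74, but was called without replicate 2 of month 12 CCl4, at -0.98. The 3 pericentral genes with a higher interaction value were in different classes: Cyp2a5 was gained, Blvrb reversed, and Slc13a3 was lower at month 2, at -1.17, and not called at month 12, at 0.43. Without replicate 2 of month 12 CCl4, Slc13a3 had an interaction value of 1.01 and a month 12 ratio of -0.17. Of 29 periportal genes, 10 were lower and 2 higher, with a median of -0.58, and with library totals 7 were lower and 3 higher, with a median of -0.23. Serpina1c, an antitrypsin, was lower at -1.35 (SE 0.15), while Apoc2, the activator of lipoprotein lipase, and Hsd17b13, a lipid droplet enzyme, were higher at 1.84 (SE 0.31) and 1.14 (SE 0.23).

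Part of the plasma proteins made by the liver had lower interaction values. Of 35 complement genes, 14 were lower and none of the 35 was higher, with a median of -0.42, and with library totals 8 were lower and 7 higher. The terminal components C8a, C8b and C9, which build the membrane attack complex, had values of -1.84 (SE 0.18), -2.24 (SE 0.24) and -1.75 (SE 0.27). Of 36 coagulation and fibrinolysis genes, 12 were lower and 3 higher, with a median of -0.29, which was 0.07 with library totals. Plg, plasminogen, F7, factor VII, and Proc, protein C, were lower at -0.73 (SE 0.12), -0.71 (SE 0.13) and -0.63 (SE 0.12). The higher ones included Plat and Plau, the tissue and urokinase proteases that activate plasminogen, of which Plat lost its call without replicate 2 of month 12 CCl4 (1.00) or replicate 6 of month 2 oil (1.64), and Plau in 12 of 24 refits. Of 33 other secreted plasma proteins, 13 were lower and 2 higher (Serpina7 and Apoc2), with a median of -0.31, which was 0.04 with library totals, where 8 were lower and 8 higher. Alb itself was not called, 0.60 (SE 0.24), with a 95% interval of 0.11 to 1.08, but was called without replicate 3, 4 or 5 of month 12 CCl4 or replicate 6 of month 12 oil, at 0.67 to 0.73.

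Acute phase genes were lower for the interaction in 10 of 36 cases and higher in 2 (Itih2 and Il1rn), with a median of -0.58, and in 8 and 1 without the 4 libraries. Between the oil groups, month 12 over month 2, their median was 0.39, against 0.01 for all genes. Itih2 kept its call in 12 of 24 refits without 1 library. The values of Saa1, the serum amyloid, rested on single livers: it was at 23.4, 41.5 and 76.1 CPM in month 12 CCl4 livers, 139, 314 and 7684 CPM in month 12 oil livers, 63.01, 159 and 2318 CPM in month 2 CCl4 livers and 31.9, 101 and 731 CPM in month 2 oil livers, and the value of -6.71 (SE 1.33) was -4.87 without replicate 4 of month 12 oil, -5.24 without replicate 1 of month 2 CCl4 and -7.93 without replicate 3 of month 2 oil. Itih1, an inter-alpha-trypsin inhibitor chain, was steadier at -1.08 (SE 0.19). Il1rn, the interleukin 1 receptor antagonist, was higher at 2.80 (SE 0.53).

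Bile acid genes moved both ways. Of 35 tested, 15 were lower and 8 higher, with a median of -0.71, and 14 and 6 without the 4 libraries. With library totals 9 were lower and 10 higher. Among those named after their values were seen, the uptake transporters Slco1a1, Slc10a1 and Slco1b2 were lower, at -5.91, -1.70 and -1.53, and so were the conjugating enzymes Slc27a5 and Baat, at -1.56 and -0.99. The basolateral exporters Abcc4, Abcc3 and Slc51b were higher, at 3.67, 2.13 and 2.32, and so was the drug pump Abcb1a, at 2.38, which was 3.01 without replicate 6 of month 2 CCl4. Cyp7a1, the rate-limiting enzyme of bile acid synthesis, had no called interaction, -1.06 (SE 0.93), with a 95% interval of -2.96 to 0.84, and its value was -0.01 without replicate 4 of month 12 oil. Its month 12 ratio of -1.46 (SE 0.67) was not called except without replicate 1 or 5 of month 12 oil or replicate 5 of month 12 CCl4, at -1.69, -1.66 and -1.80, and was -0.43 without replicate 4 of month 12 oil.

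Drug-metabolising genes moved both ways: of 57 tested, 15 were lower and 9 higher, with a median of -0.24 that was 0.11 with library totals. The carboxylesterase Ces3b was lower at -2.94 (SE 0.46), and Cyp2c39, a P450 enzyme, higher at 2.36 (SE 0.36). Respiratory chain genes were lower in 11 of 50 cases and higher in none of the 50, with a median of -0.22, whereas with library totals 9 were higher, 0 lower and the median was 0.12. Cox5a, of cytochrome oxidase, and Sdha, of succinate dehydrogenase, had values of -0.68 (SE 0.14) and -0.61 (SE 0.15). Integrated stress genes were higher in 11 of 44 cases and lower in 3. Psph, of serine synthesis, was higher at 1.08 (SE 0.26), whereas Xbp1, Sel1l and Edem1, which serve protein folding and disposal in the endoplasmic reticulum, were lower at -0.80 (SE 0.22), -0.69 (SE 0.18) and -0.57 (SE 0.15).

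**Figure D3:**
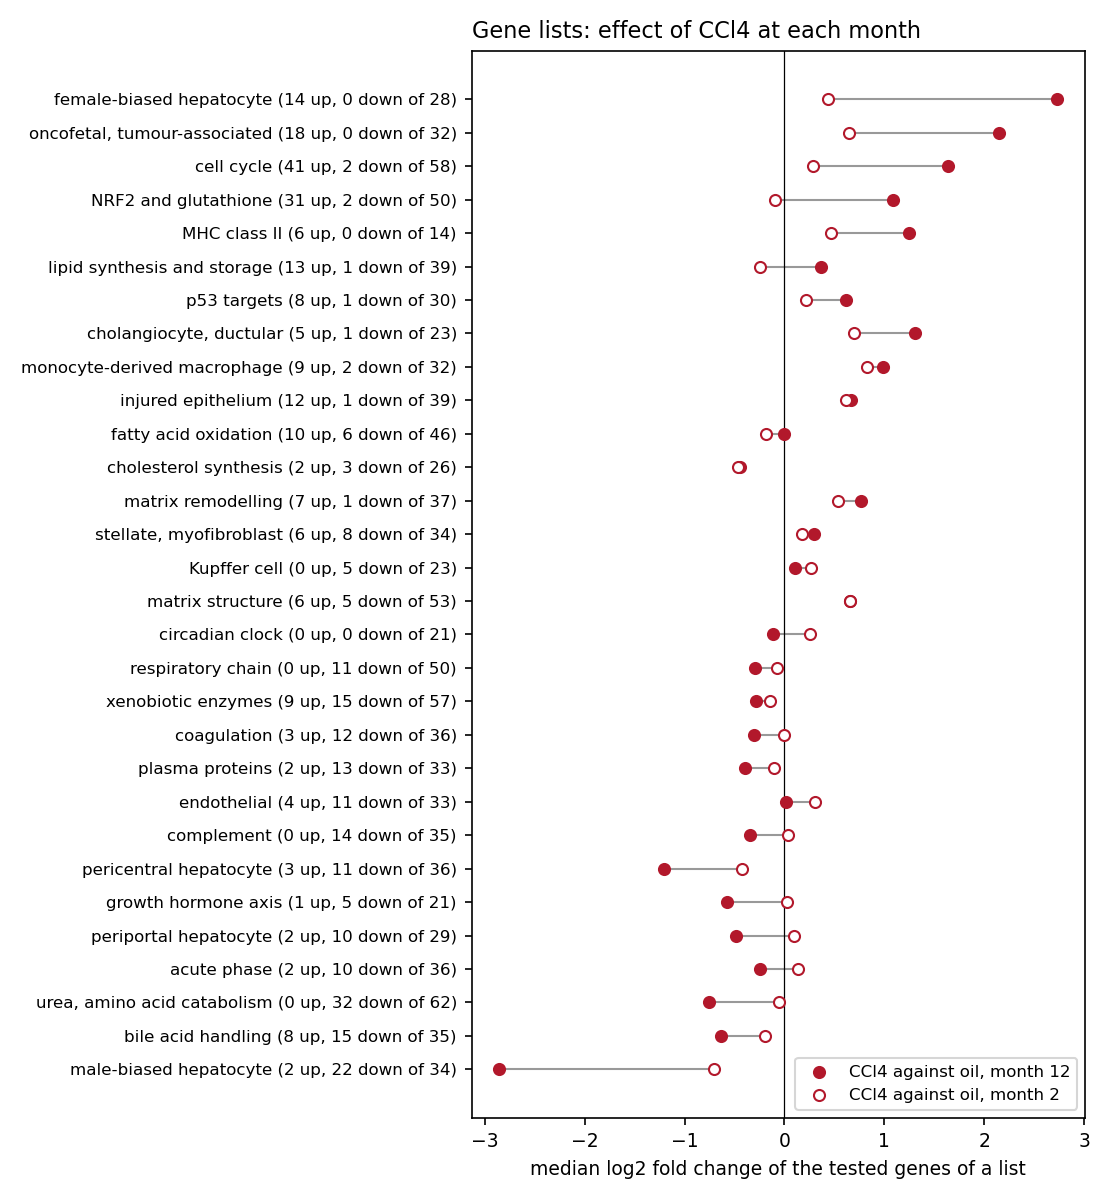
For 30 gene lists ordered by median interaction value, filled points give the median log2 CCl4-to-oil ratio of the tested members at month 12 and open points that at month 2, joined by a line, with counts called for the interaction beside each name. The female-biased list lies furthest to the right at month 12, at 2.73 against 0.44 at month 2, and the male-biased list furthest to the left, at -2.85 against -0.70.

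Scar matrix genes had a called interaction about as often as all genes. Of 53 collagen and matrix genes, 26 were higher and 0 lower at month 2, and 27 were higher and 5 lower at month 12. For the interaction 6 were higher and 5 lower, 20.8% of the list against 21.3% of all genes, with a median of -0.16, which was 0.17 with library totals and 0.04 without the 4 libraries. Col1a1 (chr11:94936224-94953042), the main collagen of scar, was at 29.9, 37.2 and 45.9 CPM in month 12 CCl4 livers, 6.65, 18.1 and 47.7 CPM in month 12 oil livers, 26.2, 37.5 and 45.6 CPM in month 2 CCl4 livers and 5.90, 12.7 and 29.1 CPM in month 2 oil livers. CCl4 and oil livers overlapped at each month. Its ratio was 0.65 (SE 0.36) at month 12, not called except without replicate 2 (0.88) or 6 (0.98) of month 12 oil, and 1.40 (SE 0.36) at month 2, called, and the interaction value of -0.75 (SE 0.50) was not called, with a 95% interval of -1.78 to 0.28. Col3a1 likewise was not called, -1.01 (SE 0.43), with an interval of -1.89 to -0.14, except without replicate 1 or 3 of month 12 oil, at -1.18 and -1.19. The 3 basement membrane genes Lama5, Nid1 and Col4a1 rose late, with values of 1.98 (SE 0.33), 1.60 (SE 0.37) and 1.03 (SE 0.25). Lum (chr10:97565128-97572703), a small proteoglycan of fibrillar collagen, was at 26.9, 51.2 and 63.2 CPM in month 12 CCl4 livers, 18.9, 22.5 and 39.6 CPM in month 12 oil livers, 39.7, 58.8 and 63.1 CPM in month 2 CCl4 livers and 11.5, 17.4 and 22.95 CPM in month 2 oil livers. The month 12 groups overlapped and the month 2 groups did not. It was higher with CCl4 at both months and less so at month 12, with an interaction value of -0.78 (SE 0.28) and edgeR adjusted p = 0.045, a call that 10 of 24 refits without 1 library retained, with values of -0.88 to -0.61.

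Among remodelling genes, 7 of 37 were higher and 1, Bmp1, lower, with a median of -0.01 (0.33 with library totals). Timp4, an inhibitor of matrix proteases, and Adamts14, a procollagen protease, had values of 6.48 (SE 0.86) and 1.82 (SE 0.39), while Timp1 was not called, -0.76 (SE 0.83), with an interval of -2.45 to 0.94, and was 0.22 without replicate 6 of month 12 oil. Stellate and myofibroblast genes split, with 8 of 34 lower and 6 higher and a median of -0.08, which was 0.27 with library totals. Hhip (chr8:79965851-80058006), an inhibitor of hedgehog ligands made by quiescent stellate cells, was at 0, 0.0316 and 0.144 CPM in month 12 CCl4 livers, 5.09, 7.72 and 8.20 CPM in month 12 oil livers, 1.87, 3.10 and 4.20 CPM in month 2 CCl4 livers and 5.27, 5.94 and 7.30 CPM in month 2 oil livers. The CCl4 groups lay below both oil groups and did not overlap each other. Hhip had an interaction value of -6.33 (SE 0.40), edgeR adjusted p = 6.3e-13, and -7.14 without replicate 4 of month 12 CCl4. Gdf2, the stellate cell factor BMP9, was lower at -1.18 (SE 0.23). Pdgfb, a growth factor for stellate cells, and Ctgf, the connective tissue growth factor, were higher at 1.80 (SE 0.35) and 1.52 (SE 0.43). Acta2, smooth muscle actin, was called at neither month, and its interaction value was 0.47 (SE 0.42), with an interval of -0.38 to 1.32.

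**Figure D4:**
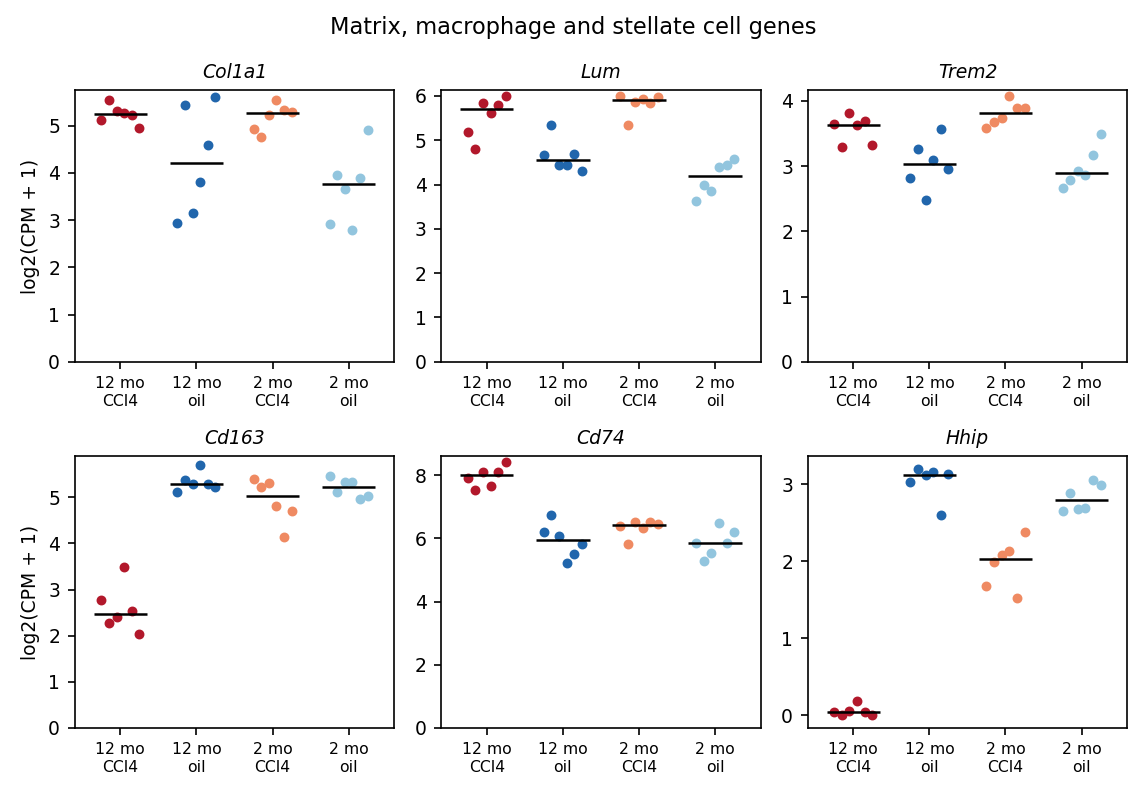
Levels of matrix, macrophage and stellate cell genes as log2(CPM + 1) for each of 6 mice a group, with a line at the median. Col1a1, Lum and Trem2 sit at similar heights in month 12 CCl4 and month 2 CCl4 livers, whereas Cd163 and Hhip are low and Cd74 is high in month 12 CCl4 livers.

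Of 32 genes of lipid-associated macrophages, which gather in injured liver, 24 were higher and 0 lower at month 12, and 21 were higher and 1 lower at month 2. For the interaction 9 were higher and 2 lower (Clec4e and Clec4d), of which Clec4d kept its call in 10 of 24 refits without 1 library, and without the 4 libraries 9 were higher and 1 lower. Trem2, their lipid receptor, was at 8.83, 11.4 and 13.02 CPM in month 12 CCl4 livers, 4.58, 7.15 and 10.9 CPM in month 12 oil livers, 11.003, 13.04 and 15.9 CPM in month 2 CCl4 livers and 5.31, 6.43 and 10.2 CPM in month 2 oil livers. The month 12 groups overlapped and the month 2 groups did not. Trem2 was called at both months, and the interaction value of -0.33 (SE 0.28) was not, with a 95% interval of -0.90 to 0.24. The month 12 ratio of 0.56 lost its call without replicate 1 or replicate 3 of month 12 oil, at 0.44 and 0.49. Gpnmb was likewise called at both months without an interaction, 0.24 (SE 0.53). Cd63, a lysosomal membrane protein, and Cd36 and Cd9 had values of 1.91 (SE 0.31), 1.56 (SE 0.31) and 1.52 (SE 0.30). Hepatocytes and other liver cells also express these 3 genes. Clec4e, an inducible receptor for dead cells, was higher at month 2 (2.04 (SE 0.44)) and not at month 12 (-0.58 (SE 0.44)).

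Of 23 genes of resident Kupffer cells, 5 were lower (Cd163, Timd4, Marco, Xlr and Id3) and none of the 23 was higher, with a median of -0.15. With library totals 2 were higher, 4 lower and the median was 0.20. Cd163 (chr6:124304656-124330527), the scavenger receptor for haemoglobin, was at 3.12, 4.54 and 10.3 CPM in month 12 CCl4 livers, 33.9, 37.97 and 51.2 CPM in month 12 oil livers, 16.5, 31.9 and 41.3 CPM in month 2 CCl4 livers and 30.1, 36.6 and 43.4 CPM in month 2 oil livers. Month 12 CCl4 livers lay below all others, and the other 3 groups overlapped. Cd163 had an interaction value of -2.65 (SE 0.31), edgeR adjusted p = 1.7e-07. Timd4, a receptor of embryonically derived Kupffer cells, was lower at -1.82 (SE 0.59), a call lost without replicate 3 of month 2 CCl4, at -1.63, and the value was -2.46 without replicate 4 of month 12 CCl4. The Kupffer markers Clec4f, Vsig4 and Cd5l were not called, at -0.09, -0.09 and -0.42.

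Some genes of class II antigen presentation rose late. Of 14 genes, 6 were higher and none of the 14 lower, with a median of 0.84, and 7 and 0 without the 4 libraries. Cd74, the invariant chain, was at 183, 257 and 345 CPM in month 12 CCl4 livers, 36.2, 60.97 and 106 CPM in month 12 oil livers, 55.5, 85.2 and 91.1 CPM in month 2 CCl4 livers and 38.2, 56.7 and 88.8 CPM in month 2 oil livers. All month 12 CCl4 livers exceeded all others. The interaction value was 1.55 (SE 0.33), edgeR adjusted p = 0.00074, and those of H2-Eb1 and H2-Aa, chains of class II molecules, were 1.68 (SE 0.40) and 1.54 (SE 0.38). Of 27 T and natural killer cell genes, 3 were higher (11.1%, against 11.2% of all genes) and none of the 27 lower, and 7 and 0 without the 4 libraries. With library totals 11 of the 27 were higher, where 5115 of all 15338 genes were, and with a filter of 1 CPM none of 17 tested. The 3 of 27 were Gzmk, Ctla4 and Trac, which reached 0.927, 0.715 and 1.56 CPM in month 12 CCl4 livers. Gzmk had an interaction value of 3.48 without replicate 4 of month 2 oil and 5.19 without replicate 5 of month 2 CCl4. Ctla4 lost its call without replicate 4 of month 2 oil, at 2.21, and Trac without replicate 2 of month 12 CCl4, replicate 4 of month 2 CCl4 or replicate 4 of month 2 oil, at 1.30, 1.31 and 1.26. The 14 class II genes summed to 472 to 948 CPM in month 12 CCl4 livers, against 100.3 to 265 CPM in month 12 oil livers. They summed to 164 to 253 CPM in month 2 CCl4 livers, against 91.3 to 267 CPM in month 2 oil livers. The T and natural killer genes summed to 25.6 to 42.1 CPM in month 12 CCl4 livers, against 16.8 to 27.3 CPM in month 12 oil livers. The part of cell number in these values was not tested.

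Endothelial genes of the sinusoid were lower in 11 of 33 cases and higher in 4 (Flt4, Pecam1, Dll4 and Efnb2), with a median of -0.32, and without the 4 libraries in 6 and 4 cases. With library totals none of the 33 was lower, 5 were higher and the median was 0.01. Tek, the receptor of angiopoietins, was lower at -0.73 (SE 0.17). Wnt2 and Rspo3, made by central vein endothelium to maintain pericentral hepatocytes, were lower at -1.04 and -0.80. Flt4, Pecam1 and Dll4, of lymphatic, general and arterial endothelium, were higher at 1.15 (SE 0.19), 0.56 (SE 0.15) and 1.01 (SE 0.26). Of 23 bile duct and ductular genes, 5 were higher (Krt23, Spp1, Prom1, Pkhd1 and Anxa13) and 1, Aqp1, lower, the last called in 9 of 24 refits without 1 library, and without the 4 libraries 10 and 0. Prom1, a progenitor marker, Krt23 and Pkhd1, the fibrocystin of duct cells, had values of 3.00 (SE 0.52), 3.26 (SE 0.56) and 1.10 (SE 0.23).

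Effects that turned round between the months were few, and most were lower at month 2 and higher at month 12. Of the 56 reversed genes, 44 were lower at month 2 and higher at month 12 (0.287% of all genes), and 12 were higher at month 2 and lower at month 12 (0.0782%). Without the 4 libraries 34 genes were reversed, of which 30 were among the 56. The count was 35 without replicate 5 of month 2 oil and 37 without replicate 6 of month 2 CCl4. Gstm4 (chr3:108040408-108044894), a glutathione transferase, was at 66.6, 72.5 and 87.3 CPM in month 12 CCl4 livers, 19.6, 25.95 and 33.3 CPM in month 12 oil livers, 16.3, 18.97 and 22.2 CPM in month 2 CCl4 livers and 22.6, 27.1 and 35.8 CPM in month 2 oil livers. CCl4 livers lay above oil livers at month 12 and below them at month 2, with no overlap in either month. Its ratio was 1.57 (SE 0.13) at month 12 and -0.53 (SE 0.13) at month 2, and its interaction value was 2.09 (SE 0.18), edgeR adjusted p = 2.7e-10. Blvrb (chr7:27447978-27466144), biliverdin reductase B of haem breakdown, was at 128, 156 and 197 CPM in month 12 CCl4 livers, 58.2, 68.9 and 90.2 CPM in month 12 oil livers, 50.6, 63.5 and 69.9 CPM in month 2 CCl4 livers and 68.2, 80.3 and 114 CPM in month 2 oil livers. The month 12 groups did not overlap, and in month 2 the highest CCl4 liver exceeded the lowest oil liver. Its ratio was 1.15 (SE 0.12) at month 12 and -0.47 (SE 0.12) at month 2, edgeR adjusted p = 2.7e-08 for the interaction.

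Of the reversed genes, 3 were among the 39 listed lipid synthesis and storage genes and 3 among the 46 listed fatty acid oxidation genes. Fgf21 (chr7:45613886-45615490), the hepatic hormone of fasting and stress, was at 4.67, 7.85 and 12.8 CPM in month 12 CCl4 livers, 0.238, 0.483 and 0.993 CPM in month 12 oil livers, 0.0323, 0.2 and 0.71 CPM in month 2 CCl4 livers and 0.616, 0.803 and 1.46 CPM in month 2 oil livers. Month 12 CCl4 livers lay above all others, and the highest month 2 CCl4 liver exceeded the lowest month 2 oil liver. The interaction value was 5.72 (SE 0.67), edgeR adjusted p = 1.7e-07, from 3.88 (SE 0.46) at month 12 and -1.84 (SE 0.49) at month 2. Without replicate 5 of month 2 CCl4 the interaction value was 6.31 and the month 2 ratio -2.43. Pparg (chr6:115360951-115490399), the regulator of fat storage, was at 7.68, 11.8 and 12.4 CPM in month 12 CCl4 livers, 3.66, 4.52 and 7.84 CPM in month 12 oil livers, 2.66, 3.55 and 4.07 CPM in month 2 CCl4 livers and 5.31, 8.60 and 15.2 CPM in month 2 oil livers. Its ratio was 1.13 (SE 0.22) at month 12, where the lowest CCl4 liver lay below the highest oil liver, and -1.43 (SE 0.22) at month 2, where the groups did not overlap, edgeR adjusted p = 3.5e-07 for the interaction. Plin4, a lipid droplet coat protein, was at 9.57, 13.5 and 38.2 CPM in month 12 CCl4 livers, 2.25, 3.55 and 4.88 CPM in month 12 oil livers, 2.18, 4.27 and 5.15 CPM in month 2 CCl4 livers and 6.27, 9.64 and 15.97 CPM in month 2 oil livers. CCl4 and oil livers were apart at both months, in opposite directions. Its ratios were 2.29 (SE 0.33) at month 12 and -1.40 (SE 0.32) at month 2. Between the oil groups, which did not overlap, Plin4 differed by -1.52 on the log2 scale, month 12 over month 2, and was not called. Crat, carnitine acetyltransferase, had ratios of 0.93 (SE 0.14) at month 12 and -0.58 (SE 0.14) at month 2.

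Of 39 lipid synthesis and storage genes, 13 were higher and 1, Elovl3, lower for the interaction (7 gained, 3 reversed, 2 deepened and 1 lost among the 13), with a median of 0.56, and without the 4 libraries 14 and 2. Between the oil groups, month 12 over month 2, the median of this list was -0.33, against 0.01 for all genes. Elovl3 lost its call without replicate 2 of month 2 CCl4, at -2.28. Elovl7, a fatty acid elongase, was gained at 3.82 (SE 0.42). Of 46 fatty acid oxidation genes, 10 were higher and 6 lower, whereas with library totals 18 were higher and 1 lower. Their median between the oil groups was -0.28, and their median interaction value was 0.12. Fabp1, the liver fatty acid carrier, and Acsl1, an acyl-CoA synthetase, were lower at -1.23 (SE 0.34) and -1.05 (SE 0.31). Of 26 cholesterol synthesis genes, 12 were lower at month 12 and 6 at month 2, none of them higher at either month, and 2 were higher (Hsd17b7 and Srebf2) and 3 lower (Tm7sf2, Ebp and Nfyb, the last called in 12 of 24 refits without 1 library) for the interaction, while with library totals 5 were higher and 0 lower, and without the 4 libraries 2 and 2. Ebp and Tm7sf2, of the late steps of the pathway, were lower at -0.68 (SE 0.19) and -0.70 (SE 0.21).

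In the opposite direction, Calcrl (chr2:84330626-84425411), the endothelial receptor for adrenomedullin, was at 31.5, 33.2 and 33.8 CPM in month 12 CCl4 livers, 42.8, 46.7 and 57.9 CPM in month 12 oil livers, 43.8, 50.3 and 60.2 CPM in month 2 CCl4 livers and 35.6, 42.1 and 47.05 CPM in month 2 oil livers. Month 12 CCl4 livers lay below every other liver, and month 2 CCl4 livers overlapped month 2 oil livers. Its ratio was -0.55 (SE 0.08) at month 12 and 0.27 (SE 0.08) at month 2, a month 2 call kept in 18 of 24 refits without 1 library, and the interaction value was -0.82 (SE 0.12), edgeR adjusted p = 6e-06. Kdr, the receptor of vascular endothelial growth factor, had ratios of -0.26 (SE 0.08) at month 12 and 0.30 (SE 0.08) at month 2, edgeR adjusted p = 0.00041 for the interaction. Tmem47, a junction protein, had ratios of -0.35 (SE 0.10) at month 12 and 0.52 (SE 0.10) at month 2. Esr1, the oestrogen receptor, was at 14.999, 16.6 and 23.9 CPM in month 12 CCl4 livers, 27.5, 37.4 and 45.8 CPM in month 12 oil livers, 20.6, 34.9 and 43.7 CPM in month 2 CCl4 livers and 16.3, 24.5 and 27.2 CPM in month 2 oil livers. The month 12 groups did not overlap and the month 2 groups did, and month 12 oil livers lay above month 2 oil livers. Its month 2 ratio of 0.52 was called in 13 of 24 refits without 1 library, and its interaction value was -1.58 (SE 0.24), edgeR adjusted p = 1e-05.

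Of the 415 genes called at month 2 and not at month 12, 118 also had a called interaction and formed the lost class. They were 54 lower at month 2 (0.352%) and 64 higher at month 2 (0.417%). Without the 4 libraries 75 genes were in this class, of which 57 were among the 118. Tenm3 (chr8:48227682-48843951), a teneurin adhesion protein, was at 8.12, 10.1 and 13.5 CPM in month 12 CCl4 livers, 10.8, 12.02 and 14.4 CPM in month 12 oil livers, 1.26, 2.29 and 2.61 CPM in month 2 CCl4 livers and 15.01, 19.95 and 23.9 CPM in month 2 oil livers. CCl4 livers of month 2 lay far below all others, and the month 12 groups overlapped. Its ratio was -0.23 (SE 0.15) at month 12 and -3.17 (SE 0.17) at month 2, an interaction value of 2.94 (SE 0.23), edgeR adjusted p = 4.5e-11. Between the CCl4 groups Tenm3 was higher at month 12 by 2.29, and between the oil groups the difference was -0.65, not called. Fitm1 (chr14:55575617-55576954), a protein of lipid droplet formation, was at 0.0708, 7.89 and 16.3 CPM in month 12 CCl4 livers, 5.60, 10.8 and 22.4 CPM in month 12 oil livers, 0.28, 0.357 and 0.859 CPM in month 2 CCl4 livers and 10.9, 20.2 and 40.1 CPM in month 2 oil livers. The month 12 groups overlapped, with 1 month 12 CCl4 liver near 0, whereas the month 2 groups lay far apart. Its interaction value was 4.88 (SE 0.78), edgeR adjusted p = 2.6e-05.

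Some P450 genes of the Cyp2c family were in this class. Cyp2c38 had a ratio of 0.21 (SE 0.34) at month 12 and -3.59 (SE 0.39) at month 2, an interaction value of 3.80 (SE 0.51). Cyp2c69 (chr19:39842814-39886799) was at 0.515, 15.1 and 32.5 CPM in month 12 CCl4 livers, 2.96, 12.9 and 19.6 CPM in month 12 oil livers, 0, 0.0741 and 0.299 CPM in month 2 CCl4 livers and 2.09, 3.21 and 17.6 CPM in month 2 oil livers. Month 2 CCl4 livers lay below all others. Its interaction value was 5.92 (SE 1.15), and 5.02 without replicate 1 of month 2 oil or 6.70 without replicate 5 of month 2 CCl4. Serpina7, the thyroxine carrier of plasma, and Hsd17b7, of cholesterol synthesis, were lower at month 2, at -1.61 (SE 0.33) and -1.17 (SE 0.21), and at month 12 had ratios of 0.43 and -0.24, not called. Ikbkg, a subunit of the kinase that activates NF-kappaB, had ratios of 0.15 (SE 0.10) at month 12 and -0.67 (SE 0.10) at month 2.

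Among genes higher at month 2, Capn6 (chrX:143802231-143827414), a calpain without protease activity, was at 1.74, 2.87 and 3.86 CPM in month 12 CCl4 livers, 2.39, 2.83 and 4.36 CPM in month 12 oil livers, 5.98, 6.37 and 6.53 CPM in month 2 CCl4 livers and 1.93, 2.48 and 3.24 CPM in month 2 oil livers. Month 2 CCl4 livers stood above all others, and the remaining groups overlapped. Capn6 had an interaction value of -1.46 (SE 0.24), edgeR adjusted p = 4.5e-05. Txndc16 (chr14:45133465-45220328), a thioredoxin domain protein, was at 7.42, 7.82 and 11.2 CPM in month 12 CCl4 livers, 7.71, 8.87 and 10.3 CPM in month 12 oil livers, 12.5, 14.7 and 16.5 CPM in month 2 CCl4 livers and 7.02, 8.37 and 11.2 CPM in month 2 oil livers. Its pattern was like that of Capn6, with an interaction value of -0.83 (SE 0.15), edgeR adjusted p = 0.00015. Cnr2, the cannabinoid receptor of immune cells, had ratios of -0.25 (SE 0.12) at month 12 and 0.54 (SE 0.12) at month 2, and the month 12 ratio was called without replicate 1 of month 12 CCl4, at -0.30. Trem1, a receptor of neutrophils and monocytes, had ratios of -0.36 (SE 0.44) at month 12 and 2.00 (SE 0.46) at month 2. Lyz1, the lysozyme of intestinal Paneth cells, also fell in this class, at -4.60, but its highest month 2 CCl4 level of 64.8 CPM was in replicate 6, the library with intestinal transcripts, and without it the interaction value was -2.92 and the month 2 ratio of 1.67 was not called. Without replicate 1 of month 12 CCl4 the interaction value of Lyz1 was -5.18 and its month 12 ratio of -1.83 was called.

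Attenuated effects were limited to 8 genes, 5 lower (0.0326%) and 3 higher (0.0196%) with CCl4 at both months. Nxpe2, of the neurexophilin domain family, was at 1.27, 4.77 and 12.7 CPM in month 12 CCl4 livers, 17.8, 19.9 and 24.1 CPM in month 12 oil livers, 1.76, 1.99 and 2.36 CPM in month 2 CCl4 livers and 18.8, 22.99 and 29.8 CPM in month 2 oil livers. Both CCl4 groups lay below both oil groups, and its ratio was -1.90 (SE 0.29) at month 12 and -3.55 (SE 0.32) at month 2. Ncapd2, a condensin subunit, had ratios of 0.60 (SE 0.11) at month 12 and 1.23 (SE 0.11) at month 2, edgeR adjusted p = 0.004 for the interaction.

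**Figure D5:**
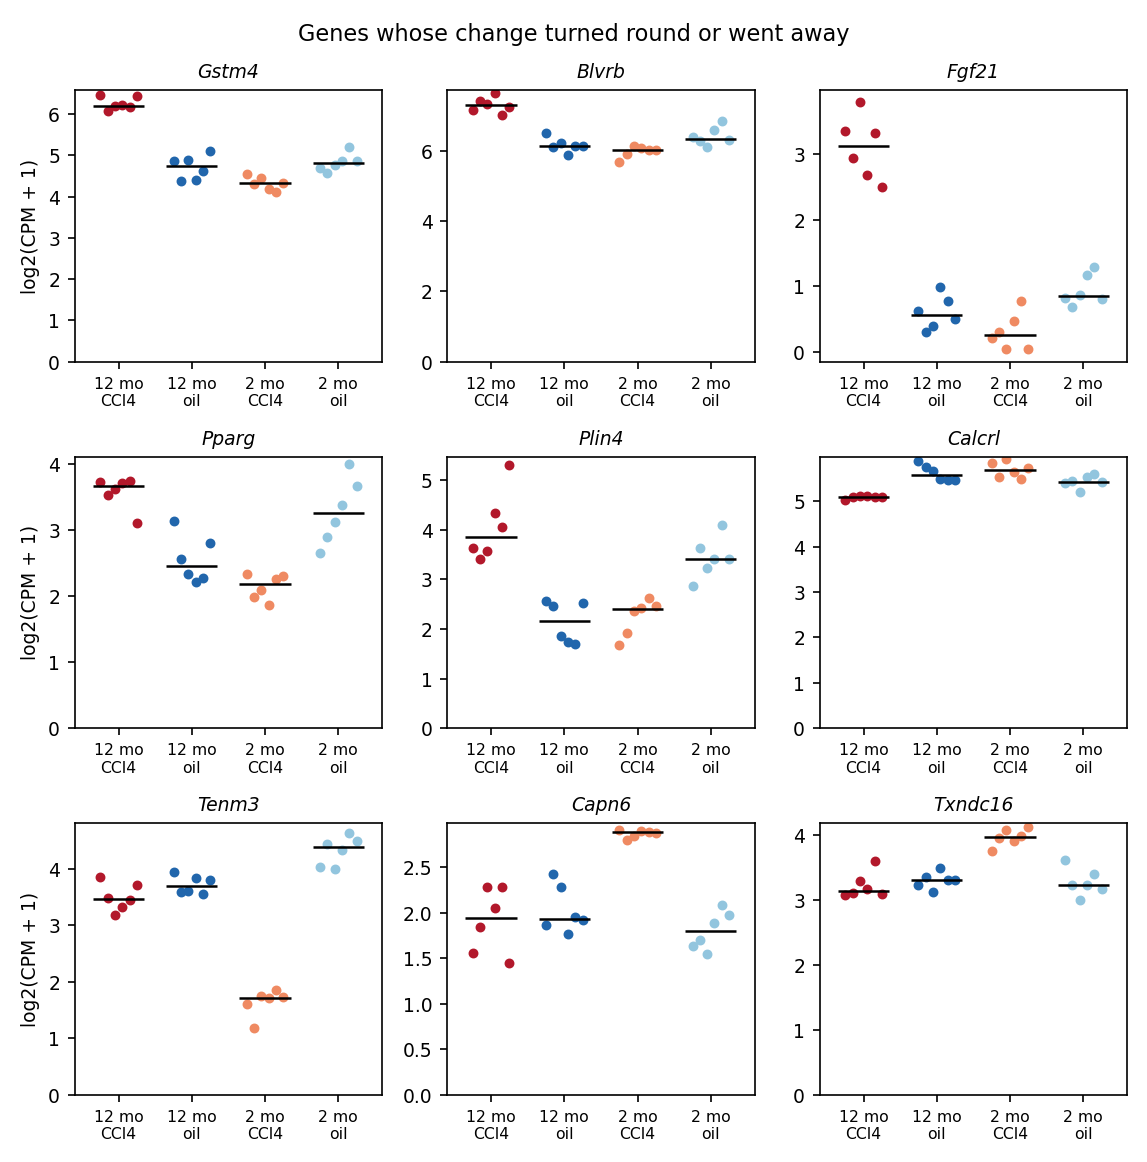
Levels of reversed and lost genes as log2(CPM + 1) for each of 6 mice a group, with a line at the median. Gstm4 medians were 72.5, 25.95, 18.97 and 27.1 CPM in month 12 CCl4, month 12 oil, month 2 CCl4 and month 2 oil livers, whereas Tenm3 is low in month 2 CCl4 livers, at a median of 2.29 CPM.

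Among lists for other tissues and blood cells, called shares were 0% for pancreas, 13.3% for neutrophil and 21.4% for intestinal genes, against 21.3% of all genes. All these calls were lower, where the share of all genes was 10.1%. Of 22 pancreas genes tested none of the 22 was called for the interaction, although their median value was -2.33, and -3.57 without the 4 libraries. The pancreas list summed to 32.8 to 49307 CPM across libraries, so the absence of a call does not show a small difference. Of 15 neutrophil genes, 10 were higher at month 2 and 2 at month 12, and 2 (Trem1 and Wfdc21) were lower for the interaction, with a median of -1.17 that was -0.15 without the 4 libraries. The 17 neutrophil genes in the table summed to 438 to 1216 CPM in month 2 CCl4 livers, the highest being replicate 1, against 503 to 667 CPM in month 2 oil livers. Of 14 intestinal genes, 6 were higher at month 2 and 3 (Lyz1, Reg3b and Reg3g) were lower for the interaction, with a median of -0.80. Without the 4 libraries 5 were higher and 3 lower for the interaction, with a median of 0.59. Reg3g lost its call without replicate 5 of month 2 CCl4, at -4.33, the library of that group highest in pancreas genes. Of 17 adipose and muscle genes, 1, Lipe, was lower for the interaction, and the list summed to 351 to 948 CPM in month 12 CCl4 livers, against 1149 to 2763 CPM in month 12 oil livers. In month 2 CCl4 livers it summed to 865 to 2047 CPM, against 1808 to 3864 CPM in month 2 oil livers. Such sums weigh the most abundant members most. As mean log2(CPM + 1) over the list, the arms overlapped at both months. The ranges were 0.73 to 3.40 in month 12 CCl4 and 1.01 to 3.81 in month 12 oil livers. At month 2 they were 0.92 to 2.04 in CCl4 and 1.03 to 3.82 in oil livers. None of the 21 clock genes was called for the interaction, where the median was -0.20, and 0.15 with library totals. A fit of the 24 libraries alone called 1 lower, and the clock covariate gave 1 higher and 2 lower. The log2 ratio of Arntl to Dbp ran from -3.92 to 2.98 within month 12 oil livers. For these genes too, the absence of a call does not show a small difference.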

How the data were processed

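RNA of whole livers was sequenced and the authors deposited a table of gene counts per library for 36 libraries, made with Biojupies, per the labels' protocols. The submitters' processing notes name mm10, edgeR 3.30.3 and limma 3.44.3, and the annotation and the strand used in counting are not given in the sources used here, so a gene and its antisense partner may share counts. Libraries of the 4 groups compared held 21812315 to 28917545 counts.

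The deposited counts were fitted in edgeR 4.0.16 (R 4.3.3) with TMM scaling, its filter by expression and a mean for each of 6 groups, month 6 CCl4 and the untreated group included. The quasi-likelihood test gave p-values, adjusted by Benjamini and Hochberg over 15338 genes. SE and 95% intervals come from that fit. CPM were computed here from the deposited counts and the scaled totals. Alternatives were other scalings and filters, the 24 libraries alone, a replicate block, a clock covariate, limma-voom (limma 3.58.1), DESeq2 1.42.0, leaving out each of 24 libraries, and leaving out 4 together.

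Members and lists were chosen with earlier results of these data known. Named genes are, among genes of at least 1 CPM whose call held in every refit, the 8 highest and 8 lowest interaction values. The same filter held for the 5 smallest p in each direction of the reversed, lost and attenuated classes. For each list the 3 called members with the smallest p, and up to 3 called against the list's direction, were named without that filter. A panel of well-known genes completes the rule. Genes outside this rule, among them Srxn1, Lum, Cdkn3, Marco, Wnt2, Rspo3, Otc, Cps1, Tdo2 and single bile acid transporters, were named after their values were seen. The lists hold no test of their own, and results for some list members are not reported here. In simulated counts for 15185 genes, 100 genes were changed 2-fold and 100 were changed 4-fold. The interaction test called 66% of the 2-fold and 87% of the 4-fold changes, none of them with the wrong sign. Far more genes, 3263 of 15338, were called in the data. The simulated rates are therefore no measure of the power of the test on these data. No libraries of a group agreed within sampling noise. Same-numbered libraries correlated at -0.46 to 0.34 over 36 pairs, 6 of them over 0.1. Libraries with different numbers were not compared in this way, so these values cannot show whether the numbers pair samples. Positions come from GENCODE vM21 on mm10 and promoters from RefSeq (GRCm38.p6).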

Additional observations from a re-analysis of the deposited data

Results flagged for a closer look

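In 27 of 168 groups of 6 libraries examined, 1 library lay far from the others by the gap test at the 95% level, where chance gives about 5 per cent, or 1 in 20. Levels of other tissues stood out as mean log2(CPM + 1) over a list. Replicate 6 of month 2 CCl4 was high for intestinal genes (4.10), replicate 2 of month 12 oil for mesothelial genes (4.13), and replicate 1 of month 2 CCl4 for erythroid genes (4.76) and neutrophil genes (3.70). Erythroid genes were low in replicate 3 of month 12 oil (2.56), and adipose and muscle genes were high in replicate 2 of month 2 CCl4 (2.04) and replicate 6 of month 2 oil (3.82).

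Single genes stood out in CPM as follows. In month 12 CCl4 livers, Slco1a1 was low in replicate 2 (1.84), Pparg in replicate 6 (7.68), Calcrl in replicate 1 (31.5) and Cyp2e1 in replicate 6 (112), whereas Esr1 (23.9) and Hhip (0.144) were high in replicate 4. In month 12 oil livers, Cyp2b9, a P450 enzyme of female liver, was high in replicate 1 (0.638), Lum was high in replicate 2 (39.6) and Hhip was low in replicate 5 (5.09). In month 2 CCl4 livers, Lyz1 (64.8) and Afp (3.88) were high in replicate 6, Cyp2c69 was high in replicate 5 (0.299), and replicate 2 was low for Tenm3 (1.26), Lum (39.7) and Cd74 (55.5). In month 2 oil livers, Cyp2a4 (1.14) and Cyp2b9 (11.04) were high in replicate 5, Srxn1 in replicate 3 (43.6), Cyp2c69 in replicate 1 (17.6) and Cenpf in replicate 2 (3.74).

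The effect of CCl4 differed between the months for 3263 genes in the edgeR interaction test. Among them the reversed genes with the smallest p were Gstm4 (2.09), Atp9a (1.22), Ermp1 (1.27), Blvrb (1.62) and Spp2 (1.66), which were higher at month 12, and Dpy19l4 (-0.51), Calcrl (-0.82), Esr1 (-1.58), Ipmk (-0.89) and Tmem47 (-0.86), which were lower at month 12, as log2 interaction values. The month 2 call of Ermp1, Dpy19l4 and Ipmk was lost in 10, 13 and 3 of 24 refits without 1 library. Month 6 CCl4 livers, which entered none of the comparisons, lay nearer to month 2 CCl4 than to month 12 CCl4 livers for 1355 of the 1404 genes gained upward.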

How the results depend on the processing

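The interaction was called for 2800 to 3600 genes under 9 other settings and for 2936 to 3396 without any 1 library (1519 to 1943 higher, 1312 to 1607 lower). With library totals alone, 5553 genes were called, 5115 higher and 438 lower, with 2151 of the 3263 among them, and calls numbered 3339 at month 2, 183 between the oil groups, 4214 gained and 1128 deepened. Without the 4 libraries carrying other transcripts, 884 genes were called at month 2, 6 between the oil groups, 114 deepened, 34 reversed and 75 lost. Oil groups differed in 26 genes with a filter of 1 CPM, 56 with the 24 libraries only, 7 with the clock covariate, 17 with limma-voom and 140 with DESeq2. The replicate block, whose numbers the labels do not explain, called 3107 interaction genes, 3018 of them among the 3263, and 19 between the oil groups. Without 1 library each, calls ran from 7132 to 7831 at month 12, 1102 to 1847 at month 2, 5804 to 6398 between the CCl4 groups and 4 to 38 between the oil groups, and classes from 2425 to 2857 gained, 148 to 272 deepened, 35 to 73 reversed, 82 to 146 lost and 6 to 10 attenuated. The reversed count was 35 without replicate 5 of month 2 oil and 37 without replicate 6 of month 2 CCl4. Of 186 named genes none changed the sign of a called value under any setting, while 198 single values fell short of the threshold and 25 newly passed it. The cause of these moves was not tested. Depth limits genes near 1 CPM, such as Ctla4 and Trem1.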

Other observations

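Proteasome subunits, a list made after their values were seen, were lower with CCl4 at month 2. Of 34 tested, all 34 had ratios below 0 at month 2 and 29 were called lower, none of the 34 higher. At month 12, 14 were lower and 4 higher, and for the interaction 8 were higher and 1 lower, with a median of 0.15. Psmd1 and Psmd14 of the regulatory particle and Psmb5, the chymotrypsin-like catalytic subunit, were higher for the interaction, at 0.68, 0.66 and 0.51, and Psma4 of the core ring was lower, at -0.41. With library totals 29 of the 34 were called for the interaction, where 5553 of all 15338 genes were. The median value of the 34 was then 0.50 and that of all genes was 0.35.

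Glycolytic and gluconeogenic genes were higher for the interaction in 8 cases and lower in 1 of 38. With library totals 15 were higher and 0 lower, where 5115 of all 15338 genes were higher and 438 lower. Hk2, the hexokinase of fetal and tumour tissue, was higher at 1.11, and Pygl, the liver glycogen phosphorylase, was lower at -0.76. Genes of injured epithelium were higher in 12 of 39 cases, among them Anxa5 at 1.41, and lower in 1, S100a1, which kept its call in 12 of 24 refits without 1 library, while without the 4 libraries 14 were higher and 0 lower. Interferon-induced genes were higher in 5 of 33 cases (Ifit2, Oasl1, Mx1, Psmb8 and Tap1) and lower in none of the 33, a share of 15.2% against 11.2% of all genes. With library totals 16 of the 33 were higher, where 5115 of all 15338 genes were.

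At month 6, CCl4 livers lay a median of 3.82% of the way from month 2 CCl4 to month 12 CCl4 livers for genes gained upward and 11.9% for genes gained downward, where 1292 of 1355 lay nearer month 2. These medians cover the 951 and 738 genes whose month 12 and month 2 CCl4 livers differed by at least 0.5 on the log2 scale, and the next ones likewise cover 35, 7, 24 and 34 genes. For reversed genes the median was 21.1% for those higher at month 12 and 30.9% for those lower at month 12. For lost effects it was 40.1% for genes lower at month 2 and 49.8% for genes higher at month 2. No month 6 oil livers were compared, so these values describe the CCl4 arm alone.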
